A study of Mus musculus with 24 samples.

Results

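Expression of 10 circadian clock genes was followed in primary chondrocytes of the mouse, which build the matrix of cartilage. The genes were chosen by symbol: Clock and Npas2, Per1, Per2, Per3, Cry1 and Cry2, Nr1d1 and Nr1d2, and Dbp. All 10 were among the 17094 genes of the deposited table, and all 10 passed the filter of at least 1 FPKM (fragments scaled to gene length and library size) in at least 3 libraries, which left 12178 genes to test. Npas2 reached 1 FPKM in 8 of 24 libraries. It passed that filter only through the untreated libraries of 36 h, where it was high. Its differences against those libraries are therefore given as a description, although the counts of passed genes below include it. Per2 reached 1 FPKM in 23 libraries and the other 8 genes did so in all 24. Every culture was of WT cells. Chondrocytes were taken from the lower chamber of transwell plates, grown by themselves (normal culture) or with primary dermal fibroblasts, which share medium but not contact (co-culture). IL-1β, an inflammatory cytokine, was either left out or given at 10 ng/ml 24 h after attachment, and cells were collected 36 h or 72 h later. The 8 groups were therefore untreated normal culture, treated normal culture, untreated co-culture and treated co-culture, each at 36 h and at 72 h and each with 3 libraries. By the design, the chondrocytes of the lower chamber were collected for sequencing, and the fibroblasts were not. The sources used here did not give the age or number of the mice, the site of the cartilage or the medium of the co-cultures. The labels number the replicates without saying that they came from separate animals or cultures, so the p-values speak of the spread between libraries alone, which may be technical.

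The mammalian clock is a loop of transcription factors. CLOCK, or its paralogue NPAS2, pairs with BMAL1 (gene Arntl) and activates genes through E-boxes, among them the Per and Cry genes, whose proteins then repress that activation. Another loop is formed by the nuclear receptors REV-ERBα and REV-ERBβ (Nr1d1 and Nr1d2), which repress Arntl and Npas2 at elements that ROR receptors activate. DBP is an activator that binds D-boxes and is commonly read as an output of the clock. Chondrocytes are known to hold such a clock, and IL-1β has been described to disturb it in cartilage. The sources used here gave no time of day and no synchronising step, and the collection times lie 36 h apart, which is 12 h off a whole number of days. A difference between 36 h and 72 h therefore holds both any rhythm and the longer culture, which cannot be told apart.

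The letters upstream of the start sites show which clock elements some of these genes carry. RefSeq windows on GRCm38.p6, running from each annotated start upstream, were found for 9 of the 10 genes and not for Per2. Each window was searched on both strands for the E-box CACGTG, the related E-prime-box CACGTT, the D-box TTANGTAA, the nuclear receptor core AGGTCA and the cAMP response element TGACGTCA. No pair of these motifs overlaps in the windows printed here. The windows of 4 genes are given 5′ to 3′ on the gene's strand, with each match in capitals, because they hold the D-boxes and E-boxes that the background above turns on.
Per3: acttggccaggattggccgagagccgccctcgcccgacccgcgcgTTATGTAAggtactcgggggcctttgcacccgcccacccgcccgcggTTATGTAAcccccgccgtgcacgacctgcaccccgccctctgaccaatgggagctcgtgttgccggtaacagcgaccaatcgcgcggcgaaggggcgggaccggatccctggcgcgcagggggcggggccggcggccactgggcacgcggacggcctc
Per1: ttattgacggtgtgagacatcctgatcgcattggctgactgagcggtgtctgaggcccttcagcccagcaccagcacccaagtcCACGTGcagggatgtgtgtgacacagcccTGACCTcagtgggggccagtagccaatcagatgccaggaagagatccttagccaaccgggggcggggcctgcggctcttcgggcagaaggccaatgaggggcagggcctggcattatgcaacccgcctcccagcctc
Cry1: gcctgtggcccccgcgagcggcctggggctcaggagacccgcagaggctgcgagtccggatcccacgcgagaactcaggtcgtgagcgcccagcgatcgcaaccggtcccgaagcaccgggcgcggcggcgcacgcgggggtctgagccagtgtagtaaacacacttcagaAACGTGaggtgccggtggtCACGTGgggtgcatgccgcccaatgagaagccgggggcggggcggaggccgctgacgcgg
Nr1d1: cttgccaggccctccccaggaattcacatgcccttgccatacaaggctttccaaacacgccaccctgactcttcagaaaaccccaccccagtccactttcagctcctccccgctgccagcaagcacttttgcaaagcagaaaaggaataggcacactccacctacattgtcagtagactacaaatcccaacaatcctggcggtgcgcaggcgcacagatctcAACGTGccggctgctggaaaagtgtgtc
The Per3 window (chr4:151044666-151044915, minus strand) held 2 D-boxes, the motif that DBP binds, 205 to 198 and 158 to 151 bases before the start. The first of 2 Per1 windows (chr11:69098699-69098948, plus strand) held an E-box 166 to 161 bases before the start and a nuclear receptor core, read on the other strand, 137 to 132 bases before it, while these letters were not in the other Per1 window. The Cry1 window (chr10:85185055-85185304, minus strand) held an E-prime-box at 79 to 74 and an E-box at 60 to 55 bases before the start. The Nr1d1 window (chr11:98775378-98775627, minus strand) held an E-prime-box 28 to 23 bases before the start. By GENCODE exons, 10 bases of the Cry1 window and 1 base of the printed Per1 window lay in an annotated exon of the gene, and 0 bases of the Per3 and Nr1d1 windows. Over all 32851 RefSeq windows of this length, 6.02% held an E-box, 3.85% an E-prime-box, 2.06% a D-box, 14% a nuclear receptor core and 1.55% the cAMP response element. Among the other members, Cry2 held an E-prime-box, Nr1d2 a nuclear receptor core and 1 of 3 Clock windows a nuclear receptor core, while these letters were not in the windows of Npas2 and Dbp, of which 60 and 159 bases lay in annotated exons of those genes. A match describes the letters only, and binding was not measured.

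All 10 genes are protein-coding. Dbp lies at chr7:45705088-45710203, Nr1d1 at chr11:98767932-98775333, Per3 at chr4:151003652-151044665 and Npas2 at chr1:39193731-39363236 on GRCm38, by GENCODE. FPKM values cover whole genes, so a change cannot be placed in single exons or isoforms.

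The 24 libraries summed to between 438242 and 506621 FPKM, with 11335 to 11607 genes at 1 FPKM or more, and the number of reads behind the values is unknown. The chondrocyte markers Col2a1 and Sox9 were present in every library (lowest 112 and 4.94 FPKM), while Snorc was at 0 in 16 of 24. The summed level of the 10 chondrocyte markers was 785 to 816 FPKM in untreated and 302 to 319 FPKM in treated normal culture at 36 h, and 1074 to 1141 against 293 to 302 FPKM at 72 h. Markers of skeletal muscle (8 genes) summed to 113 to 131 against 168 to 182 FPKM in the same groups at 36 h and to 24.4 to 26.3 against 50.6 to 57.6 FPKM at 72 h, and macrophage and myeloid markers (7 genes) to 46.7 to 54.4 against 61.9 to 71.3 and 87.6 to 94.5 against 114 to 127 FPKM. Fibroblast markers (8 genes) summed to 1784 FPKM or more in every library, endothelial markers (5 genes) to 2.35 FPKM or less and the 3 keratinocyte markers of the table to 4.11 FPKM or less. Single abundant genes carried much of these sums: in every library Col1a1 was at 1373 FPKM or more, Lyz2 at 39.2 and Acta1 at 13.8. Others stayed low, such as Pi16 (at most 1.31 FPKM), Ptprc (0.65) and Pax7 (0.02). The sums therefore do not show that the markers of a list moved together. These sums differed between the groups compared below, and their part in the clock gene values was not tested. In bulk RNA, fewer cells of a type and less RNA per cell cannot be told apart. The 3 treated normal cultures of 72 h scattered most (residual SD 0.167 on the log2 scale, against 0.0853 to 0.0994 in the untreated groups and in both treated groups of 36 h, and 0.119 in treated co-culture at 72 h).

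IL-1β raised 6 of the 10 genes at 36 h in normal culture. Dbp rose 2.14-fold and Nr1d1 2.40-fold, Per1, Per2, Per3 and Nr1d2 rose as well, and Npas2 fell. By limma, with an adjusted p (Benjamini-Hochberg over all tested genes) under 0.05, 6 of the 10 rose and 1 fell, where 25.9% of all tested genes rose, 41.5% fell and 67.5% passed in either direction. The share of the 10 that passed was thus near that of all genes. Their median difference of log2(FPKM + 1) was 0.41, against -0.09 over all tested genes.

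Of the activators, Npas2 stood at 3.23, 2.90 and 3.14 FPKM in untreated replicates 1 to 3 at 36 h and at 0.81, 0.70 and 0.68 FPKM with IL-1β. The treated libraries all lay below the lowest untreated one, and the fall was 4.23-fold in means (log2 difference -1.24, as a description). Clock, the partner of BMAL1 that NPAS2 can replace, stood at 5.64, 6.54 and 6.64 FPKM untreated and at 5.99, 5.42 and 6.24 FPKM treated. The Clock groups overlapped and the difference did not pass (log2 difference -0.08, limma adjusted p = 0.453).

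The 3 Per genes, which encode repressors of the CLOCK–BMAL1 pair, all rose. Per1 stood at 4.93, 4.77 and 4.16 FPKM untreated and at 7.41, 6.45 and 5.94 FPKM treated (log2 difference 0.43, SE 0.07, limma adjusted p = 2.43e-05). Per2 stood at 1.03, 1.12 and 0.95 FPKM untreated and at 2.32, 2.02 and 2.04 FPKM treated (0.62, SE 0.08, limma adjusted p = 1.98e-07). Per3 stood at 4.02, 4.42 and 4.09 FPKM untreated and at 6.54, 7.05 and 5.97 FPKM treated (0.54, SE 0.07, limma adjusted p = 4.35e-07). In each of the 3 genes every treated library lay above every untreated one. The Cry genes, which encode the partners of the PER proteins, did not pass: Cry1 stood at 5.54, 5.97 and 5.64 FPKM untreated and at 5.07, 5.50 and 4.91 FPKM treated. Cry2 lay between 5.76 and 5.92 FPKM in all 6 libraries, with a log2 difference of 0.00 (limma adjusted p = 0.975).

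The REV-ERB genes rose together. Nr1d1 stood at 8.91, 7.69 and 7.55 FPKM untreated and at 19.4, 19.5 and 19.0 FPKM treated, a 2.40-fold rise with no overlap (log2 difference 1.17, SE 0.06, limma adjusted p = 2.14e-13). Nr1d2 stood at 12.5, 13.2 and 13.7 FPKM untreated and at 19.2, 16.9 and 16.4 FPKM treated, also without overlap (0.39, SE 0.07, limma adjusted p = 2.78e-05). The output gene Dbp stood at 11.2, 10.4 and 10.1 FPKM untreated and at 24.1, 25.9 and 17.6 FPKM treated. All 3 treated Dbp libraries were above all untreated ones, with treated replicate 3 the lowest of them, and the rise was 2.14-fold (1.01, SE 0.10, limma adjusted p = 1.69e-08).

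**Figure D1:**
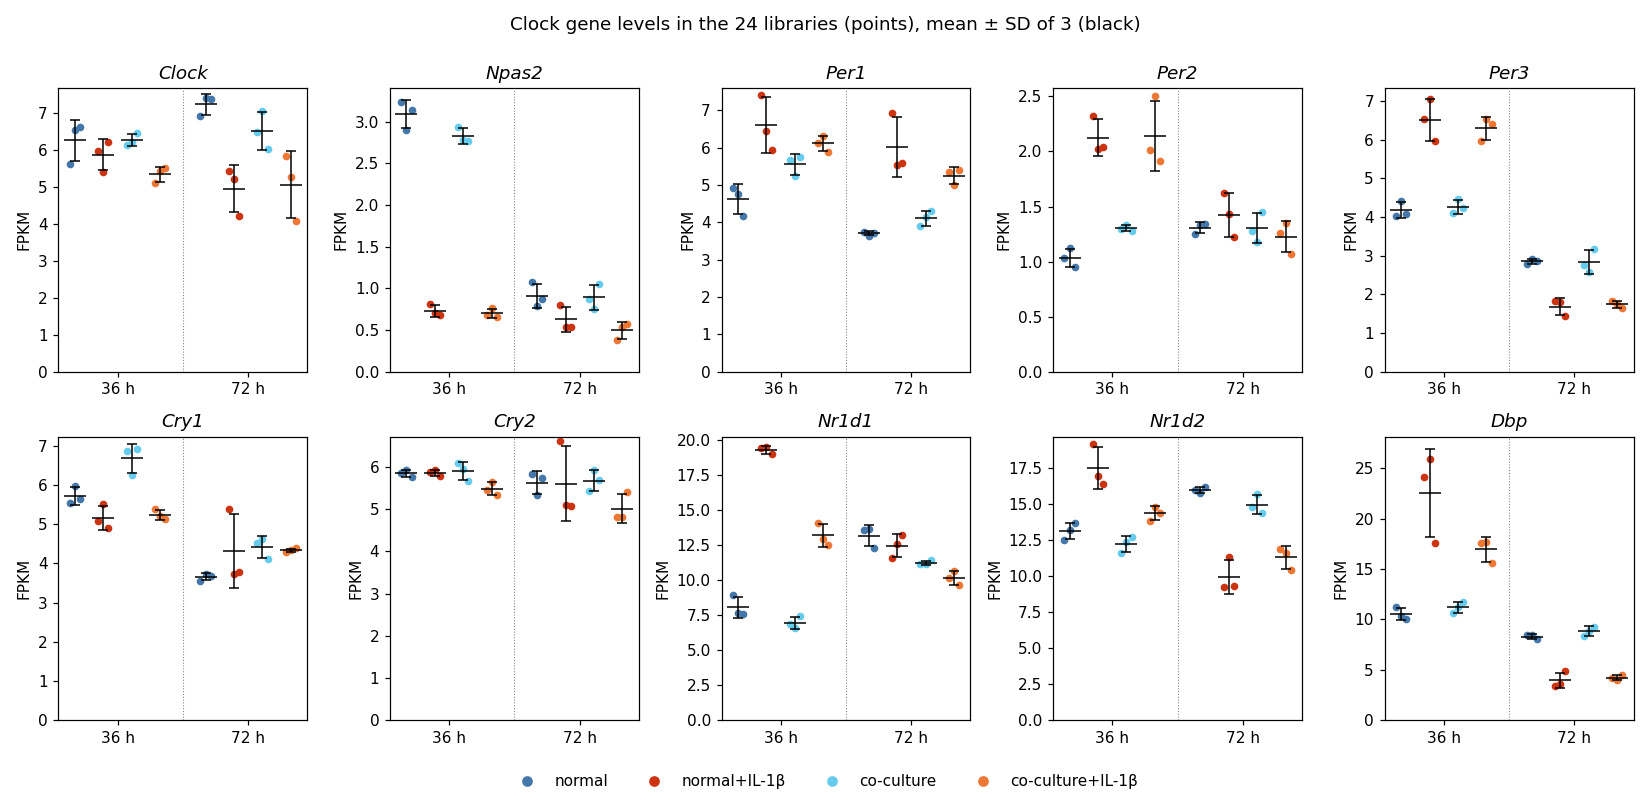
FPKM of the 10 clock genes in the 24 libraries (points), with the mean and SD of 3 libraries per group in black, at 36 h and 72 h, coloured by culture and IL-1β. Treated Dbp and Per3 libraries lie above the untreated ones at 36 h and below them at 72 h, and Npas2 is at 2.77 FPKM or more in the untreated libraries of 36 h alone.

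At 72 h the picture in normal culture was the opposite for several genes. IL-1β lowered Dbp, Nr1d2, Per3, Clock and Npas2 and raised Per1, while Per2, Cry1, Cry2 and Nr1d1 did not pass. Thus 1 of the 10 rose and 5 fell, where 23.1% of all tested genes rose, 40.3% fell and 63.4% passed in either direction. The median of the 10 was -0.15, against -0.08 over all tested genes.

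Dbp stood at 8.48, 8.43 and 8.01 FPKM untreated and at 3.43, 3.59 and 4.84 FPKM treated at 72 h, so that each treated library was below each untreated one (log2 difference -0.92, SE 0.10, limma adjusted p = 1.04e-07). Per3 stood at 2.78, 2.91 and 2.87 FPKM untreated and at 1.83, 1.79 and 1.43 FPKM treated, again without overlap (-0.53, SE 0.07, limma adjusted p = 8.17e-07). Nr1d2 stood at 16.0, 15.8 and 16.2 FPKM untreated and at 9.22, 11.3 and 9.34 FPKM treated (-0.64, SE 0.07, limma adjusted p = 3.45e-08). Its paralogue Nr1d1 stood at 13.6, 13.6 and 12.3 FPKM untreated and at 11.6, 12.6 and 13.3 FPKM treated. The Nr1d1 groups overlapped and the difference did not pass (-0.07, limma adjusted p = 0.305). It passed as lower after rescaling to TPM, which gives each library the same total (-0.20, limma adjusted p = 0.0122). The 2 paralogues were not tested against each other. Clock stood at 6.93, 7.42 and 7.39 FPKM untreated and at 5.43, 5.21 and 4.23 FPKM treated, a separation of the groups that was not seen at 36 h (-0.47, SE 0.09, limma adjusted p = 9.44e-05).

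Per1 rose at 72 h as at 36 h. It stood at 3.74, 3.64 and 3.72 FPKM untreated and at 6.93, 5.53 and 5.58 FPKM treated (0.57, SE 0.07, limma adjusted p = 7.88e-07). Per2 stood at 1.25, 1.33 and 1.34 FPKM untreated and at 1.62, 1.43 and 1.22 FPKM treated, with overlap (0.07, limma adjusted p = 0.443). Treated replicate 1 was the highest of its group for Per1, and it stood apart in both Cry genes. Cry1 stood at 3.56, 3.74 and 3.67 FPKM untreated and at 5.39, 3.74 and 3.79 FPKM treated (0.17, limma adjusted p = 0.0599), and the difference was 0.03 without treated replicate 1. It passed without treated replicate 2 (0.25, limma adjusted p = 0.0129) or treated replicate 3 (0.24, limma adjusted p = 0.0162). Cry2 stood at 5.82, 5.33 and 5.74 FPKM untreated and at 6.62, 5.09 and 5.08 FPKM treated, on both sides of the untreated range.

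Npas2 was low in both groups at 72 h, at 1.07, 0.79 and 0.87 FPKM untreated and at 0.80, 0.54 and 0.54 FPKM treated. The groups overlapped by 1 library each, and the fall was small (-0.23, SE 0.08, limma adjusted p = 0.011). It did not pass without untreated replicate 1 (-0.17, limma adjusted p = 0.0753), treated replicate 2 (-0.20, limma adjusted p = 0.0515) or treated replicate 3 (-0.20, limma adjusted p = 0.052), or with the compared groups fitted alone (limma adjusted p = 0.0714).

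The same comparison in co-culture used other libraries throughout. At 36 h IL-1β raised Nr1d1, Dbp, Per3, Per2 and Nr1d2 there and lowered Npas2 and Cry1, that is 5 of the 10 higher and 2 lower, where 23.4% of all tested genes rose, 35.3% fell and 58.7% passed. The median of the 10 was 0.17, against -0.06 over all tested genes. Nr1d1 stood at 6.89, 6.59 and 7.43 FPKM untreated and at 14.1, 12.9 and 12.5 FPKM treated (log2 difference 0.83, SE 0.06, limma adjusted p = 1.27e-10). Dbp stood at 10.6, 11.2 and 11.8 FPKM untreated and at 17.6, 17.7 and 15.6 FPKM treated (0.56, SE 0.10, limma adjusted p = 9.44e-05). Npas2 stood at 2.94, 2.78 and 2.77 FPKM untreated and at 0.68, 0.76 and 0.66 FPKM treated (-1.17, as a description). The treated and untreated libraries of these 3 genes did not overlap. Per3 stood at 4.10, 4.46 and 4.24 FPKM untreated and at 5.96, 6.53 and 6.40 FPKM treated (0.47, limma adjusted p = 4.22e-06), and Per2 at 1.30, 1.33 and 1.28 against 2.01, 2.50 and 1.91 FPKM (0.44, limma adjusted p = 2.93e-05). Nr1d2 stood at 11.6, 12.4 and 12.7 FPKM untreated and at 13.9, 14.8 and 14.4 FPKM treated (0.22, limma adjusted p = 0.00872). Both Per genes and Nr1d2 separated by treatment in every library, but the Nr1d2 difference did not pass after rescaling to TPM, which gives each library the same total (0.15, limma adjusted p = 0.118). Cry1 stood at 6.86, 6.25 and 6.92 FPKM untreated and at 5.38, 5.20 and 5.13 FPKM treated (-0.30, SE 0.08, limma adjusted p = 0.00267). Per1 did not pass here: it stood at 5.67, 5.23 and 5.75 FPKM untreated and at 6.13, 6.31 and 5.89 FPKM treated (0.12, limma adjusted p = 0.179). Clock stood at 6.14, 6.23 and 6.46 FPKM untreated and at 5.11, 5.43 and 5.51 FPKM treated, all lower, with a log2 difference of -0.20 that did not pass over all libraries (limma adjusted p = 0.0659) but did after rescaling to TPM (limma adjusted p = 0.0415).

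In co-culture at 72 h, 1 of the 10 rose and 5 fell, where 18.5% of all tested genes rose, 30.6% fell and 49.1% passed. The median of the 10 was -0.24, against -0.06 over all tested genes. Dbp stood at 8.31, 8.90 and 9.26 FPKM untreated and at 4.16, 3.99 and 4.48 FPKM treated (log2 difference -0.91, SE 0.10, limma adjusted p = 1.73e-07). Per3 stood at 2.75, 2.57 and 3.18 FPKM untreated and at 1.84, 1.74 and 1.65 FPKM treated (-0.48, SE 0.07, limma adjusted p = 4.57e-06). Nr1d2 stood at 14.8, 15.7 and 14.4 FPKM untreated and at 11.9, 11.6 and 10.4 FPKM treated (-0.38, SE 0.07, limma adjusted p = 7.76e-05). These 3 genes were lower in every treated library. Npas2 stood at 0.87, 0.75 and 1.05 FPKM untreated and at 0.38, 0.54 and 0.57 FPKM treated (-0.34, limma adjusted p = 0.000902). Clock stood at 6.49, 7.06 and 6.04 FPKM untreated and at 5.86, 5.27 and 4.08 FPKM treated (-0.32, SE 0.09, limma adjusted p = 0.00539), with treated replicate 3 the lowest of all 24 libraries. Without that library the Clock difference was -0.20 (limma adjusted p = 0.0588). Per1 stood at 3.90, 4.13 and 4.30 FPKM untreated and at 5.35, 4.99 and 5.41 FPKM treated, the only rise among the 10 (0.29, SE 0.07, limma adjusted p = 0.00261). Nr1d1 stood at 11.1, 11.2 and 11.4 FPKM untreated and at 10.2, 10.6 and 9.62 FPKM treated, lower in every library by an amount that did not pass (-0.14, limma adjusted p = 0.0722) but did after rescaling to TPM (-0.23, limma adjusted p = 0.00588). Cry1 lay between 4.10 and 4.62 FPKM in these 6 libraries and Cry2 between 4.81 and 5.92 FPKM, and neither passed. For Cry2 the treated libraries were at 4.81, 4.81 and 5.41 FPKM against 5.42, 5.92 and 5.69 FPKM untreated (-0.15, limma adjusted p = 0.0652), and it passed after rescaling to TPM (-0.25, limma adjusted p = 0.0116) or without treated replicate 3 (-0.20, limma adjusted p = 0.03).

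**Figure D2:**
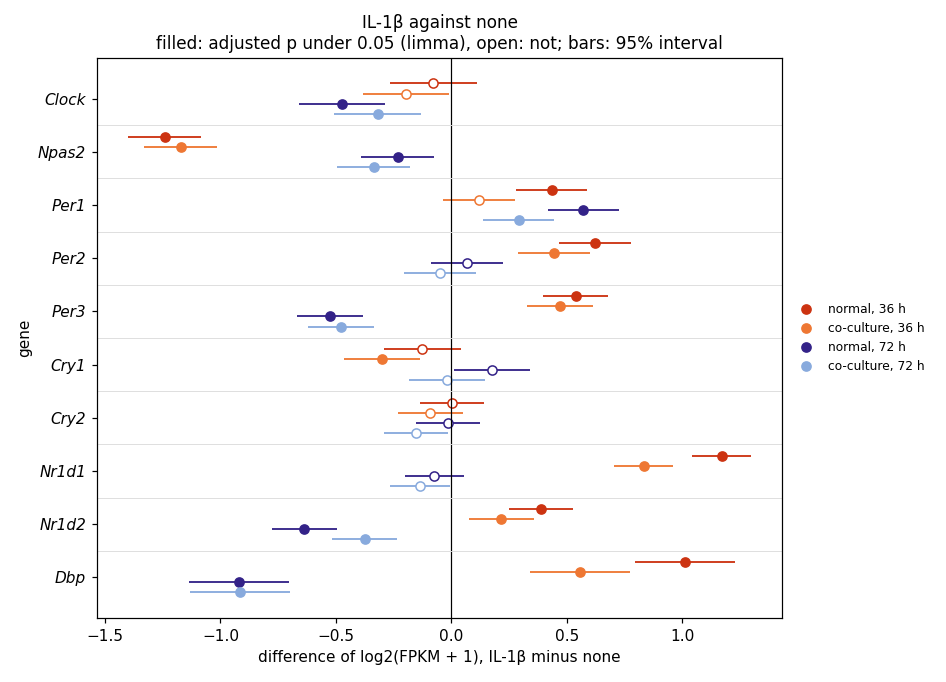
Difference of log2(FPKM + 1), IL-1β minus none, for the 10 genes in each culture and time, with 95% intervals from limma; filled points passed an adjusted p of 0.05. Dbp and Per3 lie right of 0 at 36 h and left of it at 72 h in both cultures, Npas2 lies left of 0 throughout, and Cry2 stays between -0.15 and 0.00.

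The effect of IL-1β differed between 36 h and 72 h for most of the 10 genes, by a test of that difference over libraries of both times. In normal culture 2 differences were positive and 6 negative, where 23.7% of all tested genes had a positive difference, 21.6% a negative one and 45.4% passed. In co-culture 1 was positive and 5 negative, where 14.1% and 14.8% of all tested genes were, and 28.8% passed. Among the 10, Dbp moved furthest: the log2 difference was -1.93 (SE 0.15, limma adjusted p = 1.08e-09) in normal culture and -1.47 (SE 0.15, limma adjusted p = 1.14e-07) in co-culture, from a rise at 36 h to a fall at 72 h. Per3 made the same turn, by -1.06 in normal culture and -0.95 in co-culture (limma adjusted p = 1.53e-08 and 1.49e-07). Nr1d2 also turned, by -1.02 and -0.59 (limma adjusted p = 1.95e-08 and 5.91e-05). Nr1d1 went from a rise to a difference that did not pass, by -1.24 and -0.97 (limma adjusted p = 2.95e-10 and 2.36e-08), and Per2 did the same by -0.55 and -0.49 (limma adjusted p = 0.000238 and 0.00129). Npas2 was the opposite case, with a smaller fall at 72 h than at 36 h and differences of 1.01 and 0.84 (as a description). Clock (-0.40, limma adjusted p = 0.015) and Cry1 (0.30, limma adjusted p = 0.0334) passed in normal culture only, which does not show that the cultures differ. The Clock value was -0.31 without treated replicate 3 of 72 h (limma adjusted p = 0.0516). The Cry1 value was 0.16 without treated replicate 1 of 72 h (limma adjusted p = 0.0861). Cry1 also lost the call without untreated replicate 2 (0.27, limma adjusted p = 0.0751) or treated replicate 1 (0.29, limma adjusted p = 0.062) or 3 (0.27, limma adjusted p = 0.0758) of 36 h, and without untreated replicate 1 (0.28, limma adjusted p = 0.0639) or 3 (0.30, limma adjusted p = 0.0529) of 72 h. Per1 and Cry2 passed in neither culture. For Per1 the difference was 0.14 and 0.17, with higher treated means at both times.

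Between 36 h and 72 h the untreated cultures moved too, and these comparisons share their untreated libraries with the ones above. In untreated normal culture 3 of the 10 were higher at 72 h and 5 lower, where 33.1% of all tested genes were higher, 25.3% lower and 58.4% passed. In untreated co-culture 2 were higher and 5 lower, where 36.6% and 24.9% of all tested genes were and 61.5% passed. Npas2 fell most, from a mean of 3.09 to 0.91 FPKM in normal culture (log2 difference -1.10). In co-culture it fell from 2.83 to 0.89 FPKM (-1.02), and both values are a description. Nr1d1 rose from 8.05 to 13.2 FPKM in normal culture (0.65, limma adjusted p = 8.74e-09) and from 6.97 to 11.2 FPKM in co-culture (0.62, limma adjusted p = 1.86e-08). Nr1d2 rose by 0.27 in both (limma adjusted p = 0.00184 and 0.00144). Cry1 fell by 0.53 and 0.50 and Per3 by 0.43 and 0.46. Per1 fell by 0.26 and 0.36. All libraries of 72 h lay below those of 36 h for Npas2, Cry1, Per3 and Per1 and above them for Nr1d1 and Nr1d2, in both cultures. Dbp was 10.6 FPKM on average at 36 h and 8.31 FPKM at 72 h in normal culture (-0.31, limma adjusted p = 0.0144), and 11.2 and 8.82 FPKM in co-culture (-0.31, limma adjusted p = 0.0132). Those Dbp calls were lost without replicate 1 of 36 h in normal culture (-0.27, limma adjusted p = 0.0592), and in co-culture without replicate 3 of 36 h (-0.28, limma adjusted p = 0.0516) or replicate 1 of 72 h (-0.27, limma adjusted p = 0.0541). Per2 was higher at 72 h in normal culture (0.18, limma adjusted p = 0.0424) and did not pass in co-culture, and the test of the difference between the cultures did not pass either (-0.18, limma adjusted p = 0.34). The call in normal culture was lost after rescaling to TPM (limma adjusted p = 0.0516) or median-of-ratios scaling (limma adjusted p = 0.0881). It was also lost without replicate 1 (0.18, limma adjusted p = 0.0811) or replicate 3 (0.15, limma adjusted p = 0.137) of 36 h and without replicate 1, 2 or 3 of 72 h (0.20, 0.18 and 0.17, limma adjusted p = 0.0533, 0.0942 and 0.1). Clock and Cry2 passed in neither culture.

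In the treated cultures none of the 10 genes was higher at 72 h than at 36 h by limma. In treated normal culture 0 of the 10 were higher and 7 lower by limma. Of all tested genes, 37.1% were higher, 32% lower and 69.1% passed. In treated co-culture 0 were higher and 8 lower, where 35.4% and 28.9% of all tested genes were and 64.3% passed. An unadjusted limma p under 0.05 in either direction was found for 7 of the 10 in normal culture and 8 in co-culture. Over all 12178 tested genes, 8689 and 8216 had such an unadjusted limma p. Dbp fell from a mean of 22.6 to 3.95 FPKM in normal culture, 5.70-fold (log2 difference -2.24, SE 0.10, limma adjusted p = 6.21e-14). In co-culture it fell from 17.0 to 4.21 FPKM, 4.03-fold (-1.78, SE 0.10, limma adjusted p = 4.64e-12). Per3 fell from 6.52 to 1.68 FPKM (-1.49, limma adjusted p = 5.67e-14) and from 6.30 to 1.74 FPKM (-1.41, limma adjusted p = 4.00e-13). Nr1d1 fell by 0.59 and 0.35, Nr1d2 by 0.76 and 0.32 and Per2 by 0.37 and 0.49. Each of these 5 genes was lower in every 72 h library than in any 36 h library of its culture. The REV-ERB genes thus rose with time in untreated cells and fell with time in treated ones, which is the difference tested above. Smaller falls passed for Cry1 in both (-0.23 and -0.22), for Clock in normal culture (-0.21) and for Npas2 (-0.19) and Per1 (-0.19) in co-culture. These smaller falls did not all pass when single libraries were left out. The Cry1 fall in normal culture was -0.37 without the high treated replicate 1 of 72 h and did not pass without replicate 2 of 36 h (-0.19, limma adjusted p = 0.0668) or without replicate 2 or 3 of 72 h (-0.15 and -0.16, limma adjusted p = 0.107 and 0.0952). The Clock fall did not pass without replicate 1 or 3 of 36 h (-0.20 and -0.18, limma adjusted p = 0.095 and 0.137) and was -0.12 without replicate 3 of 72 h (limma adjusted p = 0.252). In co-culture Cry1 did not pass without replicate 1 of 36 h (-0.21, limma adjusted p = 0.0529). Npas2 there did not pass without replicate 1 or 2 of 36 h (-0.19 and -0.16, limma adjusted p = 0.0607 and 0.117) or replicate 1 of 72 h (-0.13, limma adjusted p = 0.182). Per1 there did not pass without replicate 1 or 2 of 36 h (-0.18 and -0.17, limma adjusted p = 0.0693 and 0.0991) or replicate 2 of 72 h (-0.16, limma adjusted p = 0.116). Without treated replicate 1 of 72 h in normal culture, Per1 (-0.21, limma adjusted p = 0.0125) and Cry2 (-0.17, limma adjusted p = 0.00724) passed as well.

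**Figure D3:**
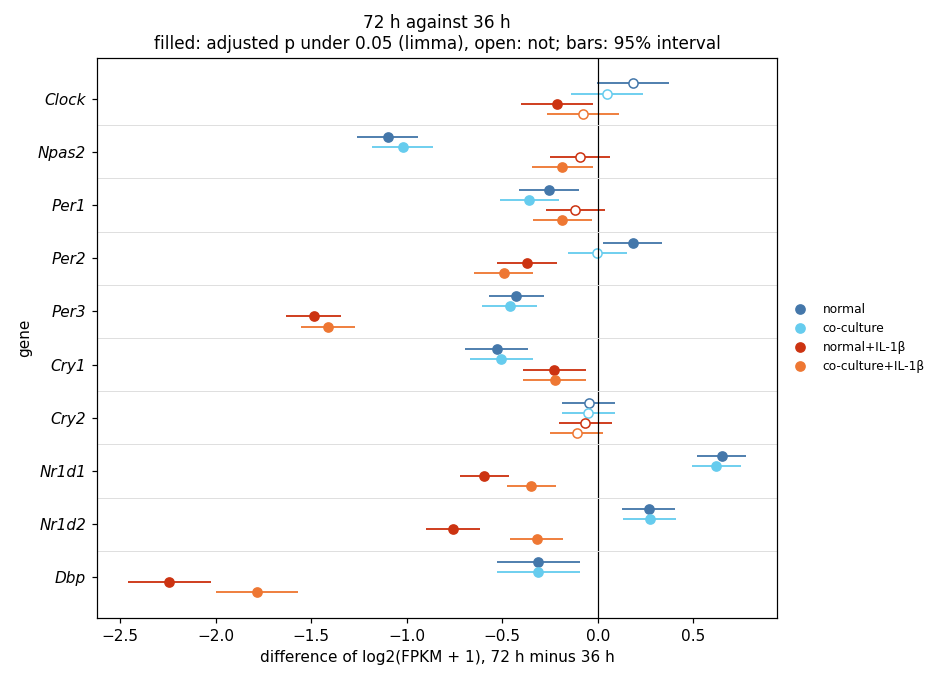
Difference of log2(FPKM + 1), 72 h minus 36 h, for the 10 genes in the 4 combinations of culture and IL-1β, with 95% intervals from limma; filled points passed an adjusted p of 0.05. Nr1d1 and Nr1d2 lie right of 0 in untreated and left of 0 in treated cells, and Dbp and Per3 lie furthest left in treated cells.

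Co-culture with dermal fibroblasts, tested on the same libraries, left most of the 10 genes without a passed difference. In untreated cells at 36 h 1 of the 10 was higher and 0 lower, where 6.28% of all tested genes were higher, 9.2% lower and 15.5% passed. That gene was Per1, at 4.93, 4.77 and 4.16 FPKM in normal culture and 5.67, 5.23 and 5.75 FPKM in co-culture, without overlap (log2 difference 0.22, SE 0.07, limma adjusted p = 0.0465). The Per1 call was lost without replicate 2 or 3 of normal culture (0.24 and 0.16, limma adjusted p = 0.0692 and 0.22), without replicate 1, 2 or 3 of co-culture (0.21, 0.26 and 0.20, limma adjusted p = 0.133, 0.0531 and 0.145), after rescaling to TPM (limma adjusted p = 0.0801) and without the filter (limma adjusted p = 0.0652). In untreated cells at 72 h 0 of the 10 passed by limma, where 1.72% of all tested genes were higher, 1.68% lower and 3.4% passed. An unadjusted limma p under 0.05 was found for 2349 of the 12178 tested genes and for 2 of the 10. Those 2 were Cry1 (0.22, limma adjusted p = 0.136) and Nr1d1 (-0.21, limma adjusted p = 0.0616). Both of them passed with the compared groups fitted alone (limma adjusted p = 0.0419 and 0.0264) and with weights per library (limma adjusted p = 0.0101 and 0.0154). At 36 h the untreated Nr1d1 libraries of co-culture were also all below those of normal culture, by -0.18 (limma adjusted p = 0.0509). That difference passed with a pseudocount of 0.1 (limma adjusted p = 0.0461), after rescaling to TPM (limma adjusted p = 0.0423), with weights per library (limma adjusted p = 0.016), and without replicate 3 of normal culture or of co-culture (-0.22 in each case, limma adjusted p = 0.0407 and 0.0391).

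Under IL-1β at 36 h, co-cultured chondrocytes had less Nr1d1, Nr1d2 and Dbp than those in normal culture. Thus 0 of the 10 were higher and 3 lower, where 6.38% of all tested genes were higher, 4.17% lower and 10.6% passed. Nr1d1 stood at 19.4, 19.5 and 19.0 FPKM in normal culture and at 14.1, 12.9 and 12.5 FPKM in co-culture, with a wide gap between the groups (log2 difference -0.52, SE 0.06, limma adjusted p = 9.77e-06). Nr1d2 was lower in each co-culture library (-0.27, SE 0.07, limma adjusted p = 0.0126), and its call was lost without replicate 1 of normal culture (-0.20, limma adjusted p = 0.102) or replicate 1 of co-culture (-0.24, limma adjusted p = 0.0624). Dbp overlapped, since replicate 3 of normal culture (17.6 FPKM) lay within the co-culture range of 15.6 to 17.7 FPKM (-0.38, SE 0.10, limma adjusted p = 0.023). The Dbp call was lost without replicate 1 or 2 of normal culture (-0.32 and -0.27, limma adjusted p = 0.119 and 0.133), without replicate 3 of co-culture (-0.32, limma adjusted p = 0.115) and with the compared groups fitted alone (limma adjusted p = 0.0572). At 72 h under IL-1β 1 of the 10 passed, Nr1d1, which was lower in co-culture (-0.27, SE 0.06, limma adjusted p = 0.00717), where 7.22% of all tested genes were higher, 5.26% lower and 12.5% passed. Nr1d1 there stood at 11.6, 12.6 and 13.3 FPKM in normal culture and at 10.2, 10.6 and 9.62 FPKM in co-culture, with no overlap. With the compared groups fitted alone the adjusted p of limma was 0.328, as 0 genes passed in that fit. Nr1d2 (0.17, limma adjusted p = 0.0964) passed there without replicate 2 of normal culture (0.26, limma adjusted p = 0.00809) or replicate 3 of co-culture (0.23, limma adjusted p = 0.0414).

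The difference between the cultures in the effect of IL-1β was tested directly. At 36 h 0 of the 10 had a positive and 1 a negative difference, where 4.73% and 2.23% of all tested genes had and 6.96% passed: Nr1d1 rose less in co-culture (log2 difference -0.34, SE 0.09, limma adjusted p = 0.0196). That call was lost without replicate 2 or 3 of untreated normal culture (-0.31 and -0.30, limma adjusted p = 0.0552 and 0.0637), replicate 3 of untreated co-culture (-0.30, limma adjusted p = 0.0634) or replicate 3 of treated co-culture (-0.30, limma adjusted p = 0.0629). Dbp (-0.45, limma adjusted p = 0.0685) passed after rescaling to TPM (-0.48, limma adjusted p = 0.0398) and without replicate 3 of treated normal culture, its lowest library (-0.62, limma adjusted p = 0.00329). Per1 (-0.31, limma adjusted p = 0.0776) passed without that library too (-0.38, limma adjusted p = 0.0367). At 72 h 0 of the 10 passed by limma, where 1.68% of all tested genes had a positive difference, 1.43% a negative one and 3.11% passed. An unadjusted limma p under 0.05 was found for 2 of the 10 and for 2514 of the 12178 tested genes. Nr1d2 (0.26, limma adjusted p = 0.12) passed without replicate 2 of treated normal culture (0.35, limma adjusted p = 0.0162) or replicate 3 of treated co-culture (0.32, limma adjusted p = 0.0473). Between 72 h and 36 h, the co-culture difference of untreated cells changed for 0 of the 10 by limma. Of all tested genes, 2.76% had a positive change, 2.21% a negative one and 4.97% passed. An unadjusted limma p under 0.05 was found for 0 of the 10 and for 2460 of the 12178 tested genes. The co-culture difference of treated cells changed for 1, Nr1d2 (0.44, SE 0.10, limma adjusted p = 0.013), where 1.08% of all tested genes had a positive change, 1.52% a negative one and 2.6% passed. That value came from a lower level in co-culture at 36 h and a higher mean at 72 h, and it did not pass with the compared groups fitted alone (limma adjusted p = 0.147). Dbp (0.46, limma adjusted p = 0.105) passed there without treated replicate 3 of normal culture at 36 h (0.62, limma adjusted p = 0.00571) or at 72 h (0.58, limma adjusted p = 0.0208).

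**Figure D4:**
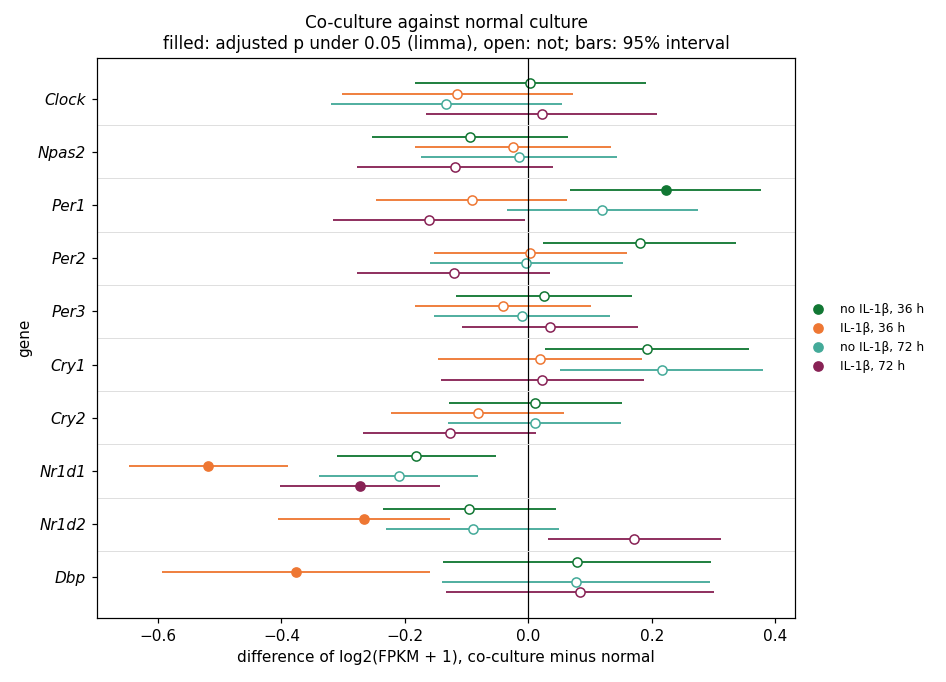
Difference of log2(FPKM + 1), co-culture minus normal culture, for the 10 genes at both times, treated and untreated, with 95% intervals from limma; filled points passed an adjusted p of 0.05. The filled points are 5, and the Nr1d1 point of treated cells at 36 h (-0.52) lies furthest from 0.

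Over the 8 groups the 10 genes differed in range and in order. Npas2 ranged widest, 6.22-fold from a mean of 0.497 FPKM in treated co-culture at 72 h to 3.09 FPKM in untreated normal culture at 36 h. Ordered by mean, its 2 untreated groups of 36 h stood apart from the other 6, whose neighbours all overlapped. Dbp ranged 5.70-fold, and its order had 4 steps of 2 groups each with a gap between steps: treated at 72 h, untreated at 72 h, untreated at 36 h and treated at 36 h. Normal culture and co-culture overlapped within each of those steps. Per3 had the same 4 steps in the same order, 1.68 to 6.52 FPKM, with gaps between steps and overlap of the cultures within them. Nr1d1 ran from 6.97 FPKM in untreated co-culture at 36 h to 19.3 FPKM in treated normal culture at 36 h. Cry2 kept within 5.01 to 5.90 FPKM, and every pair of neighbours in its order overlapped, as was the case for Clock between 4.96 and 7.25 FPKM. Levels of different genes are compared here only on the per-length FPKM scale.

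Across the 8 group means of log2(FPKM + 1), 9384 genes were ranked by their likeness to Dbp. The most alike were 6330403K07Rik (Pearson r 0.98), Per3 (0.98) and Nme3 (0.98), and the most opposite were Dedd (-0.99), Ctbp2 (-0.98) and Sesn2 (-0.98). For Npas2 the most alike were Jarid2, Pmp22 and Tmem39a (0.99 each), and the most opposite were Crim1, Hspb8 and Tmsb4x (-0.99 each). Each such value rests on 8 points that share libraries within a group, and it describes these groups only. For deviations from the group means over the 24 libraries, the r of Dbp with Per3 was 0.02.

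The other genes of the clock were taken as a list of 21, of which 20 were tested (Rorb was not). The counts and medians below include Hlf, which reached 1 FPKM only in treated libraries of 36 h, so its part in them is a description. IL-1β in normal culture raised 7 and lowered 5 of the 20 at 36 h and raised 7 and lowered 4 at 72 h. In co-culture it raised 7 and lowered 7 at 36 h and raised 7 and lowered 4 at 72 h. Of all tested genes, 67.5% and 63.4% passed in normal culture and 58.7% and 49.1% in co-culture, so these counts were near the share of all genes or, in co-culture at 36 h, somewhat above it. Their median difference was 0.05 and 0.13 in normal culture and -0.07 and 0.04 in co-culture, beside the medians of all genes given above. Arntl, which encodes the BMAL1 partner of CLOCK and NPAS2, stood at 7.03, 7.35 and 7.35 FPKM untreated and at 16.5, 13.4 and 12.1 FPKM treated in normal culture at 72 h. All treated libraries were higher (0.85, SE 0.08, limma adjusted p = 1.25e-08), and at 36 h the rise was smaller (0.26, limma adjusted p = 0.0104). In co-culture Arntl rose at 72 h (0.81, limma adjusted p = 3.89e-08). Arntl was thus higher with IL-1β at 72 h while Clock and Npas2 were lower. Rora, the receptor that activates where REV-ERB represses, was higher with IL-1β at 72 h by 0.60 in normal culture and 0.54 in co-culture (limma adjusted p = 4.10e-06 and 2.43e-05). In normal culture its untreated mean went from 4.67 FPKM at 36 h to 2.66 FPKM at 72 h, and its treated mean from 5.77 to 4.61 FPKM.

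Genes that act at D-boxes besides Dbp were Tef and Hlf, which activate, and Nfil3, which represses. Tef followed Dbp in direction: it stood at 16.6, 15.9 and 15.4 FPKM untreated and at 19.5, 19.4 and 17.8 FPKM treated at 36 h, and at 17.5, 15.8 and 16.2 against 11.8, 11.5 and 11.2 FPKM at 72 h, in normal culture. The difference was 0.23 (limma adjusted p = 0.000219) at 36 h and -0.49 (limma adjusted p = 1.11e-08) at 72 h, both without overlap. Hlf stood at 0.59, 0.53 and 0.50 FPKM untreated and at 1.03, 1.18 and 1.08 FPKM treated at 36 h in normal culture (log2 difference 0.44), and at 0.25 FPKM or less in all 12 libraries of 72 h. Hlf reached 1 FPKM in 4 libraries, all of them treated at 36 h, so it passed the filter through the group where it is high and its difference is given as a description. The repressor Nfil3 differed the other way from Dbp at 72 h in normal culture. It stood at 19.9, 20.7 and 21.0 FPKM untreated and at 37.5, 36.1 and 39.1 FPKM treated (0.84, limma adjusted p = 4.51e-13). At 36 h its difference was -0.06 (limma adjusted p = 0.221). Its untreated mean went from 41.3 FPKM at 36 h to 20.5 FPKM at 72 h, and its treated mean from 39.4 to 37.6 FPKM. Ciart, which encodes a repressor of the CLOCK–BMAL1 pair, fell with IL-1β at 36 h (-0.72, limma adjusted p = 0.000323) and rose at 72 h (0.79, limma adjusted p = 0.000142) in normal culture. Across the 8 group means, Dbp had a Pearson r of 0.93 with Tef, 0.87 with Hlf, 0.26 with Nfil3 and -0.94 with Ciart, as a description of 8 points. For deviations from the group means over the 24 libraries, r was 0.39, -0.26, 0.38 and -0.37 in the same order.

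**Figure D5:**
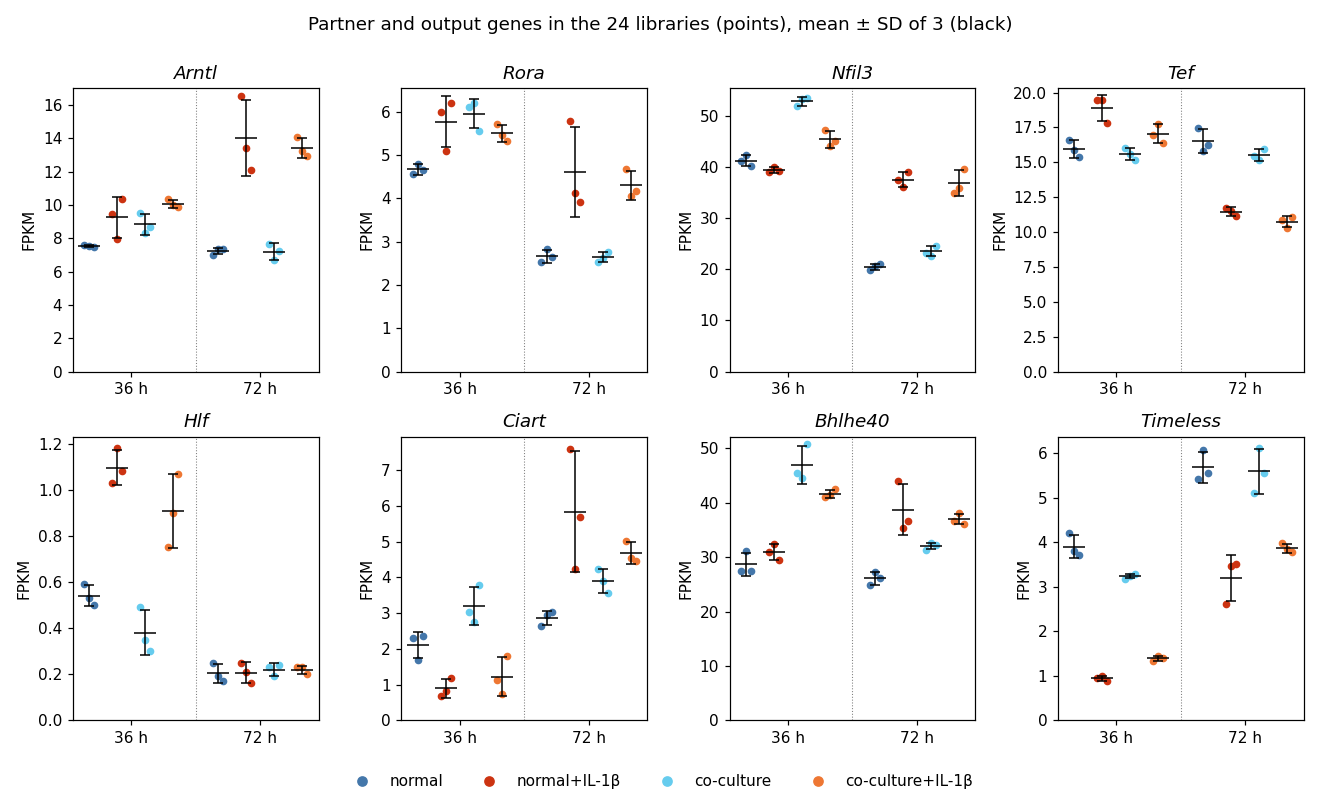
FPKM of 8 other clock genes in the 24 libraries (points), with the mean and SD of 3 libraries per group in black, coloured by culture and IL-1β. Treated libraries have more Arntl and Nfil3 and less Tef than untreated ones at 72 h.

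Co-culture of untreated cells raised 6 and lowered 0 of these 20 genes at 36 h by limma. Of all tested genes, 6.28% were higher, 9.2% lower and 15.5% passed. Among the 6 were Bhlhe40, which encodes an E-box repressor (0.69, limma adjusted p = 1.52e-07), and Nfil3 (0.35, limma adjusted p = 1.15e-05). At 72 h co-culture raised 2 and lowered 0, where 1.72% of all tested genes were higher, 1.68% lower and 3.4% passed. The 2 were Nfil3 and Bhlhe40 (0.19 and 0.29, limma adjusted p = 0.0285 and 0.0194). Timeless and Wee1, which also serve DNA replication and mitosis, fell with IL-1β at both times and in both cultures. At 36 h in normal culture Timeless went from 4.20, 3.79 and 3.71 to 0.95, 1.00 and 0.89 FPKM (-1.33, limma adjusted p = 3.70e-13).

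Other gene lists that bear on clock genes also held genes that passed in these comparisons. Of all tested genes, 67.5% passed for IL-1β at 36 h and 63.4% at 72 h in normal culture, and 15.5% for untreated co-culture at 36 h, and the counts below are read against those shares. Of 10 cell cycle genes, 10 fell with IL-1β at 36 h and 10 at 72 h in normal culture, with medians of -1.61 and -0.73. Of 10 immediate early genes, which include targets of cAMP and serum signals, 5 rose and 3 fell with IL-1β at 36 h and 8 rose and 1 fell at 72 h in normal culture, led by Nr4a2 (2.04 and 2.45). In untreated co-culture at 36 h, where Per1 was higher, 8 of the 10 immediate early genes rose and 0 fell by limma, with a median of 1.21. Under IL-1β at 36 h co-culture also raised 8 of them and lowered 1, with a median of 1.06, where 10.6% of all tested genes passed. Per1 did not pass there (-0.09, limma adjusted p = 0.497). Fosb had its highest group means in untreated and treated co-culture at 36 h (0.97 and 0.98 FPKM). It may have passed the filter through those groups, so its difference there is a description. Of 9 tested glucocorticoid-responsive genes, 3 rose and 4 fell with IL-1β at 36 h and 4 rose and 4 fell at 72 h in normal culture, and 6 rose in untreated co-culture at 36 h. The part of these lists in the clock gene values was not tested.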

How the data were processed

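The labels describe oligo(dT)-enriched mRNA of primary chondrocytes, 24 libraries in 8 groups of 3. The deposited table gives 1 FPKM value per gene and library, computed by the authors on GRCm38, per the submitters' processing notes. For the aligner, the counting tool and the annotation, names are not given in the sources used here. Depth is unknown: 12.5% of 279 low values (20 genes) were whole multiples of their gene's smallest step to within 0.05, and chance gives 10%. Genes with at least 1 FPKM in at least 3 libraries were tested as log2(FPKM + 1) with limma 3.58.1 (R 4.3.3, trended prior), with a mean for each group, all 24 libraries in the fit and 16 residual degrees of freedom. Benjamini-Hochberg adjustment ran over all 12178 tested genes within each of 18 comparisons, with the threshold at an adjusted p of 0.05. The log2(FPKM + 1) scale understates the change of low genes such as Npas2 and Per2. Plots used matplotlib 3.10.9 and Python 3.11. The procedure was tested on simulated data. Those data gave each gene the same spread in every group, so they do not cover the wider spread of treated normal culture at 72 h.

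The members and lists were chosen with earlier results of these data known. All 10 members and all 20 tested genes of the list of other clock genes could be named, with up to 4 of each other list and, for Dbp and Npas2, the 3 genes most alike and most opposite across group means. The alternatives were log2(FPKM + 0.1), no filter (17091 genes), TPM rescaling, scaling by median of ratios, the compared groups fitted alone, the replicate number as a block and leaving out each library. Weights per library were added after the data were seen. Same-numbered libraries deviated together, by a correlation above 0.1 for each number, in 1 of 12 comparisons, treated co-culture against treated normal culture at 72 h (0.364, 0.179 and 0.577). The block changed no count of the 10 genes there or elsewhere. Promoter windows and motif matches were read from RefSeq sequences of GRCm38.p6, on the strand given with them, and gene positions from GENCODE.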

Additional observations from a re-analysis of the deposited data

Results flagged for a closer look

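A test of the difference itself showed that the IL-1β effect on 8 of the 10 clock genes changed between 36 h and 72 h in normal culture, where 45.4% of all tested genes did. The log2 differences, 72 h minus 36 h, were -1.93 for Dbp, -1.24 for Nr1d1, -1.06 for Per3, -1.02 for Nr1d2, -0.55 for Per2, -0.40 for Clock, 0.30 for Cry1 and 1.01 for Npas2. The Cry1 call was lost in 9 of 19 alternatives and the Clock call in 1. In co-culture, which used other libraries, it changed for 6, where 28.8% of all tested genes did: -1.47 for Dbp, -0.97 for Nr1d1, -0.95 for Per3, -0.59 for Nr1d2, -0.49 for Per2 and 0.84 for Npas2. Both counts include Npas2, which passed the filter only through the untreated libraries of 36 h, so its values are a description. Dbp, Per3 and Nr1d2 passed in opposite directions at the 2 times in both cultures. Same-numbered treated libraries of 72 h deviated together between the cultures (correlations of 0.364, 0.179 and 0.577), so the cultures may not be independent there. The IL-1β effect on Nr1d1 at 36 h was smaller in co-culture than in normal culture (-0.34), a call lost in 4 of 19 alternatives. The co-culture difference of Nr1d2 in treated cells changed between the times (0.44), a call lost in 1 of 19 alternatives.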

How the results depend on the processing

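Of 180 values of the 10 genes over 18 comparisons, none reversed, and 140 kept their side of the threshold under each alternative run (58 of 77 that passed and 82 of 103 that did not). In untreated co-culture at 36 h (1 passed), 2 passed with a pseudocount of 0.1, 0 without the filter, 2 with the compared groups alone and 4 with weights per library. At 72 h (0 passed), 1 passed after TPM rescaling and 2 with the compared groups alone or with weights. For treated co-culture at 72 h (1 passed), 0 passed with the compared groups alone. For the interaction at 36 h (1 passed), 2 passed after TPM or median-of-ratios scaling and 3 with the compared groups alone or with weights. For the change of the treated co-culture difference between times (1 passed), 0 passed with the compared groups alone and 2 with weights.

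Leaving out 1 library gave 0 to 1 for untreated co-culture at 36 h, 1 to 3 and 1 to 2 for treated co-culture at 36 h and 72 h, 0 to 3 and 0 to 1 for the interaction at 36 h and 72 h, 1 to 2 for the change of the treated co-culture difference, 5 to 9 and 5 to 8 for 72 h against 36 h in treated normal culture and co-culture, 6 to 8 and 6 to 7 in the untreated ones, and 5 to 6 for IL-1β at 72 h in normal culture. With the pseudocount of 0.1, the fall of Npas2 with IL-1β at 36 h was -1.94 and the rise of Per2 0.97 in normal culture. The replicate number as a replicate block left 7, 6, 7 and 6 of the 10 past the threshold for IL-1β, as without it.

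Over all tested genes, fitting the compared groups alone moved the count from 1885 to 3095 (untreated co-culture, 36 h), 414 to 1330 (72 h), 1520 to 0 (treated co-culture, 72 h), 847 to 1793 and 379 to 12 (interaction, 36 h and 72 h), and 605 to 2055 and 317 to 83 (change of the co-culture difference, untreated and treated). Weights per library gave 3619, 2023, 927, 2128, 752, 2264 and 554 for these, 2303 against 1285 for treated co-culture at 36 h and 5347 against 3513 for the change of the IL-1β effect in co-culture. With TPM rescaling the all-gene median went from -0.08 to -0.20 for IL-1β at 72 h in normal culture, and the share of higher among passed genes from 36.4% to 23.6%, against 47.4% by median-of-ratios. In co-culture that share was 37.6%, 23.9% and 45.9% at 72 h and 39.8%, 29.8% and 47.9% at 36 h. For untreated co-culture it was 40.6% and 53.1% by ratios at 36 h and 50.7%, 37.1% and 61.2% at 72 h, for treated co-culture at 72 h 57.8% and 42.4%, and for the interaction at 72 h 54.1%, 65.6% and 29.6%. Depth is unknown, so what it limits cannot be given. The cause of each change was not tested.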
